A study of Mus musculus with 6 samples.

Results

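Cluster 4 is 1 of the 16 numbered clusters that the authors gave to single CD4 T cells sorted from the colonic lamina propria of mice. Its members were taken as all cells with that cluster number and an assigned hashed replicate, 1718 of 18658 such cells with a cluster. The deposited analysis left the cluster without a name, and it was picked for description under the marker genes Ccl5, Csf2, Gzma, Lmna and Crip1. All mice were Foxp3{delta}EGFPiCre/WT at the Foxp3 locus and R26lsl-tdTomato/wt at Rosa26. They thus had a wild-type Foxp3 allele beside an allele, written with a delta, that carries EGFP and iCre, and a tdTomato reporter that Cre recombination switches on for good. Cells were sorted into a tdTomato-GFP- gate and a tdTomato+GFP+ gate, each loaded on 1 10x lane with 3 replicates marked by hashing antibodies. Gate effects and lane effects therefore cannot be told apart. The labels give no treatment, and age and sex are not stated in the sources used here.

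Regulatory T (Treg) cells restrain immune responses and depend on the transcription factor Foxp3. GFP reads current use of the modified allele and tdTomato reads its use at any time, so the tdTomato-GFP- gate can also hold Treg cells that transcribe the wild-type allele. Foxp3 lies on chromosome X (GRCm38, 7573644 to 7595245), and UMIs of the 2 alleles were not separated here. Helper T cells of the gut are commonly sorted by cytokine and transcription factor into Th1 (Ifng, Tbx21), Th2 (Il4, Il5, Il13, Gata3), Th17 (Il17a, Il17f) and Treg (Foxp3, Ikzf2) types. Effector and memory T cells also raise genes of the cytoskeleton, the nuclear lamina and the S100 and annexin families, which act in migration and membrane dynamics.

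The tdTomato-GFP- gate held 772, 354 and 169 cluster 4 cells in replicates 1 to 3, and the tdTomato+GFP+ gate held 86, 218 and 119. These cells gave 4011178, 1782020 and 857840 UMIs (unique molecules) in the tdTomato-GFP- replicates and 402489, 1058261 and 722777 in the tdTomato+GFP+ replicates. The median cell had 4590.5 UMIs, the second highest median of the 16 clusters after cluster 10, which is the cluster with the most cell cycle RNA. In all, 174 cell barcode sequences occurred in both lanes, 22 of them in cluster 4 cells. Alpha beta T cell identity was checked from RNA and receptor sequence. Of the 1718 cells, 1560 had at least 1 receptor chain and 1313 had both, and 1706 had a UMI of Cd3d, Cd3e or Cd3g. The share of cells with 2 beta chains among those with any was 2.65 to 6.02% over the tdTomato-GFP- replicates and 3.96 to 4.74% over the tdTomato+GFP+ replicates, against 3.77 to 4.39% and 0.843 to 4.06% in all other clusters.

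Markers of other cell types were read in the same sums. The B cell gene Ms4a1, the epithelial gene Fabp2 and the stromal genes Col1a2, Mgp and Sparc were at 0 UMIs. The 12 epithelial genes summed to 6.73 to 10.5 UMIs per 1000000 UMIs (CPM) in the tdTomato-GFP- replicates and 4.72 to 19.4 CPM in the tdTomato+GFP+ replicates. Cd8b1, the CD8 gene in the table, was at 3.50 to 7.86 CPM and 4.97 to 12.5 CPM. The 11 genes of B and plasma cells summed to 182 to 320.4 CPM in tdTomato-GFP- cells, against 192 to 254 CPM in the other clusters, and to 67.1 to 127 CPM against 72.6 to 89.0 CPM in tdTomato+GFP+ cells. The 13 myeloid genes summed to 586 to 675 CPM against 674 to 819 CPM and to 561 to 609 CPM against 683 to 744 CPM. The 7 genes of gamma delta T cells summed to 50.4 to 83.9 CPM against 57.1 to 101.7 CPM and to 55.3 to 161 CPM against 192 to 265 CPM. In tdTomato+GFP+ cells the myeloid and gamma delta sums lay below those of the other clusters, and the other ranges of these 3 lists overlapped. Their part in the results was not tested. The 9 genes of NK and innate lymphoid cells summed to 208 to 227 CPM in tdTomato-GFP- cells and 105 to 166 CPM in tdTomato+GFP+ cluster 4 cells. Invariant receptors were rare: TRAV11 with TRAJ18, the alpha chain of invariant NKT cells, was seen in 2 of 1377 cluster 4 cells with an alpha chain, and TRAV1 with TRAJ33, that of mucosal-associated invariant T cells, in 0.

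Among the genes higher in cluster 4 in all 6 replicates, genes of the effector cytoskeleton had the largest ratios over all other clusters. Ccl5, Csf2 and Gzma of the working label were not higher in all 6 and so could not enter this ranking. Because the authors' clusters were made from these genes, the levels are a description and were not tested. Crip1, which encodes a small LIM-domain protein (chromosome 12, GRCm38, 113146316 to 113153879), led with a mean log2 ratio of 1.48 over all other clusters. Its level was 3195, 3538 and 2546 CPM in the tdTomato-GFP- replicates, against 1247, 1375 and 1164 CPM in the other clusters of the same replicates. In the tdTomato+GFP+ replicates it was 3063, 4762 and 4124 CPM, against 1046, 1317 and 1232 CPM. Cluster 4 was higher in all 6 replicates, and its lowest replicate lay above the highest of the other clusters.

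Lmna encodes the nuclear lamins A and C (chromosome 3, GRCm38, 88480147 to 88509956) and was second, with a mean log2 ratio of 1.38. It was at 449, 602 and 401 CPM in the tdTomato-GFP- and 467, 647 and 638 CPM in the tdTomato+GFP+ replicates of cluster 4. All other clusters had 223, 278 and 227 CPM and 109, 172 and 174 CPM, so the 6 replicates of each did not overlap. A Lmna UMI was found in 54.9% of cluster 4 cells in the tdTomato-GFP- gate (SD 8.89 over 3 replicates) and 56.3% in the tdTomato+GFP+ gate (SD 8.51), the highest of any ranked cluster in both gates.

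Next came S100a4 and S100a6, calcium-binding proteins, with mean log2 ratios of 1.14 and 1.08, then Cxcr3, a chemokine receptor of Th1 and cytotoxic cells, at 1.04 and Cd7 at 1.02. The other 14 of the 20 leading genes were Ctsw, Actg1, Anxa1, Myadm, Gramd3, Crip2, Anxa2, Ifi27l2a, Tmsb10, Lgals1, Serpinb1a, Flna, Pdlim1 and Fdps. Actg1, Tmsb10, Flna and Pdlim1 encode actin or actin-binding proteins, and Anxa1 and Anxa2 encode annexins. Of 21 listed genes of the effector cytoskeleton, S100 and annexin families, 18 were higher in cluster 4 in all 6 replicates, while 4.39% of all 15208 genes were. Their summed level was 19823 to 24556 CPM in the tdTomato-GFP- gate against 12038 to 13522 CPM in all other clusters. In the tdTomato+GFP+ gate it was 25521 to 31516 CPM against 16104 to 18032 CPM. Cluster 4 ranked first in both gates.

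Il17a, the Th17 cytokine, had the lowest mean log2 ratio (-3.00), at 426, 276 and 226 CPM in the tdTomato-GFP- and 1508, 1486 and 603 CPM in the tdTomato+GFP+ replicates of cluster 4. All other clusters had 2137, 1668 and 2141 CPM and 13727, 11407 and 9807 CPM. The related cytokine Il17f followed at -2.20, then the chemokine Ccl20 at -2.15 and the inhibitory receptor Lag3 at -1.46. Igfbp4, Cxcl3, Cd83, Jun, Neb and Il10 made up the 10 lowest.

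By list, 10 of 16 AP-1 and stress genes, 11 of 21 Treg genes, 8 of 18 T cell receptor activation genes and 7 of 18 Th17 genes were lower in cluster 4 in all 6 replicates, against 12.9% of all genes. Jun, a subunit of AP-1, was at 448 to 572 CPM in cluster 4 and at 1084 to 1478 CPM elsewhere. Glycolysis genes went the other way, with 7 of 16 higher and 1 lower in all 6 replicates. Of the 16 granzyme and cytotoxic genes 3 were higher and 2 lower. Over all genes 4.39% were higher and 12.9% lower in all 6 replicates, so the count of 2 lower was near the share of all genes. The 3 clusters most like cluster 4 over all genes were cluster 6, cluster 0 and cluster 2, with a mean Pearson r of log2(CPM + 20) of 0.981, 0.980 and 0.971 over 6 replicates. These correlations are across genes, which are not independent, and the profiles compared come from the same libraries.

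**Figure D1:**
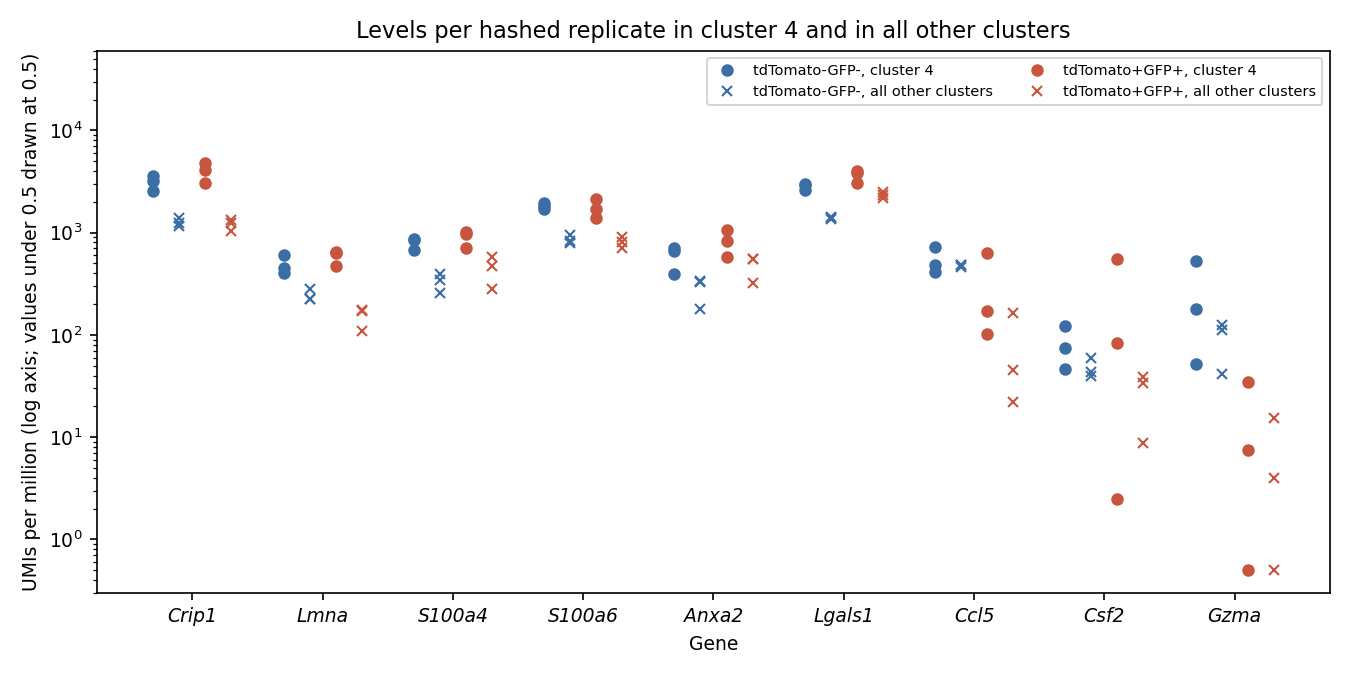
CPM (log axis) of 9 genes in cluster 4 (circles) and in all other clusters (crosses), 1 point for each hashed replicate of the tdTomato-GFP- (blue) and tdTomato+GFP+ (red) gate. Crip1, Lmna, S100a4 and S100a6 lie higher in cluster 4 in all 6 replicates, while Ccl5, Csf2 and Gzma spread widely between replicates.

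The 3 genes of the working label that encode secreted proteins were carried by few cells. Gzma encodes a granzyme, a protease of cytotoxic granules. A Gzma UMI was found in 64 cells (3.73% of cluster 4), and 3 cells held at least 50% of the 1014 UMIs. The 12 cells with 10 or more UMIs held 87.5%. Csf2 encodes the myeloid growth factor GM-CSF. Its 1120 UMIs came from 97 cells (5.65%), of which 6 held at least 50%, and the 23 cells with 10 or more held 84.1%. Ccl5, a chemokine that draws T cells and monocytes, was wider, with 3792 UMIs in 412 cells (24.0%). By contrast 977 cells (56.9%) had a Lmna UMI and 1662 (96.7%) a Crip1 UMI.

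Replicates therefore moved with single cells. Gzma was at 51.9, 180 and 527 CPM in the tdTomato-GFP- replicates and at 0, 7.56 and 34.6 CPM in the tdTomato+GFP+ replicates. The 2, 5 and 5 cells with 10 or more Gzma UMIs were all in the tdTomato-GFP- gate, and without them its replicates were at 13.5, 11.5 and 24.7 CPM. The 0 Gzma UMIs in 86 cells of tdTomato+GFP+ replicate 1 allow a share of cells with a UMI of up to 3.49% and a level of up to 7.45 CPM, by counting error only. In all other clusters Gzma was at 41.6, 126 and 110 CPM and at 0.147, 3.95 and 15.5 CPM, so cluster 4 was higher in 5 of 6 replicates.

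Csf2 was at 122, 46.6 and 74.6 CPM in the tdTomato-GFP- and 2.48, 83.2 and 546.5 CPM in the tdTomato+GFP+ replicates, and here too 5 of 6 exceeded the other clusters. Replicate 3 of the tdTomato+GFP+ gate stood high through 6 cells with 10 or more UMIs, without which it was at 43.6 CPM. Ccl5 was at 407, 480 and 724 CPM and at 101.9, 172 and 635 CPM, with 485, 461 and 487 CPM and 21.9, 45.0 and 165 CPM in all other clusters. It was lower in cluster 4 in tdTomato-GFP- replicate 1 alone. Single clusters had more cells with a UMI of these genes in the tdTomato-GFP- gate. Ccl5 was in 29.9% of cluster 4 (rank 2 of 14) and 100% of cluster 15 cells. Gzma was in 5.60% (rank 3) against 15.8% in cluster 15, and Csf2 in 5.75% (rank 5) against 8.69% in cluster 1. In the tdTomato+GFP+ gate cluster 4 had rank 1 of 13 for Ccl5 (12.8%) and Csf2 (6.58%) and rank 2 for Gzma (1.88%).

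**Figure D2:**
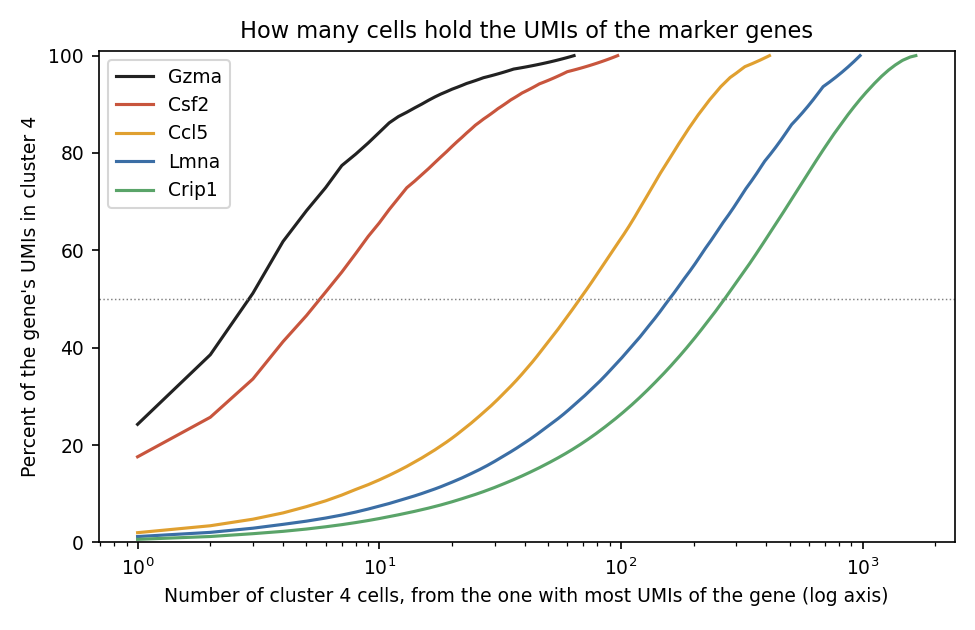
Percent of a gene's UMIs in cluster 4 held by the cells with most UMIs of it, against the number of cells counted from the highest (log axis), for 5 marker genes. The dotted line at 50% is crossed at 3 cells for Gzma, 6 for Csf2, 68 for Ccl5, 159 for Lmna and 269 for Crip1.

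The same cells did not carry all 3 genes. Over replicates, 2 cells had both a Gzma and a Csf2 UMI, where the product of the 2 shares within each replicate gave 3.89. Gzma went with Ccl5 in 37 cells (product 17.6) and with Gzmb in 31 (product 12.3). Of the 12 cells with 10 or more Gzma UMIs, 0 had a Csf2 UMI, 7 had a Ccl5 UMI and 10 had both receptor chains, in 9 clonotypes. Their median total was 8617 UMIs, against 4590.5 for the cluster, and the part of doublets was not tested. Csf2 went instead with the Th2 cytokines. It was found with Il13 in 19 cells (product 5.48) and with Il5 in 15 (product 3.31), above the product in 5 of 6 replicates for both. Of the 23 cells with 10 or more Csf2 UMIs, 12 had an Il13 UMI, 10 an Il5 UMI and 1 a Ccl5 UMI, and 19 had at least 1 receptor chain.

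Other pairs also separated cells of the cluster. Ccl5 was found with Ifng, the Th1 cytokine, in 202 cells (product 129), but with Il17a in 34 (product 91.8) and with Il13 in 5 (product 15.9), both below the product in all 6 replicates. Il13 and Il5, which lie close together on chromosome 11, were found together in 37 cells (product 3.60), above it in all 6 replicates. Foxp3 was found with Ifng in 23 cells (product 88.5) and with Il17a in 96 (product 100). Cells with more UMIs detect more of any 2 genes, and the clusters were made from these counts, so the pairs are given without a test.

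Mixed lineage transcripts were read as a UMI of at least 2 of the 4 lineage sets Th1, Th2, Th17 and Treg named above, after each cell was thinned to 2000 UMIs. Thinning left out 38 tdTomato-GFP- and 11 tdTomato+GFP+ cluster 4 cells with fewer UMIs. In the tdTomato-GFP- gate, 19.7, 20.2 and 16.4% of cluster 4 cells were mixed (mean 18.8%, SD 2.08), ninth of 13 clusters with at least 20 thinned cells in each replicate. In the tdTomato+GFP+ gate the shares were 34.9, 24.1 and 17.9% (mean 25.6%, SD 8.61), eighth of 10 clusters. The gates overlapped, and each same-numbered pair was higher in tdTomato+GFP+ cells (exact sign-flip p = 0.25, the smallest that 3 pairs allow). UMIs of 3 or more sets were found in 1.83% (SD 1.06) and 2.93% (SD 1.57) of cells, and of none in 31.1% (SD 3.54) and 20.7% (SD 2.51). Without thinning the mixed shares were 37.7 and 50.5%.

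The composition of these transcripts differed between the gates. Th1 transcripts were found in 33.2% of tdTomato-GFP- cells (SD 0.729) and 15.3% of tdTomato+GFP+ cells (SD 8.97), Th17 transcripts in 14.0% (SD 5.43) and 46.6% (SD 21.4). Th2 transcripts were found in 21.5% (SD 4.11) and 25.6% (SD 15.6), Treg transcripts in 21.0% (SD 2.44) and 20.3% (SD 7.80). Within tdTomato+GFP+ cells the Th17 share was 67.5, 47.6 and 24.8% and the Th2 share 10.8, 24.1 and 41.9% in replicates 1 to 3, so the replicates differed more than the gate means did. The replicates of the gates did not overlap for Th1 and Th17 transcripts and overlapped for Th2 and Treg transcripts.

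Joint detection was set against the product of the 2 shares in each replicate. In the tdTomato-GFP- gate Th1 and Treg transcripts met in 3.62% of cells (product 6.96%), Th1 and Th2 in 5.49% (product 7.13%) and Th1 and Th17 in 5.25% (product 4.65%). In the tdTomato+GFP+ gate Th2 and Th17 met in 6.52% (product 9.72%) and Th17 and Treg in 12.5% (product 10.6%). Th2 and Treg transcripts met in 5.09% (product 4.46%) and 4.48% (product 4.43%) of cells in the first and second gate. Joint detection was thus above the product for Th2 with Treg and Th1 with Th17 in the first gate and for Th17 with Treg in the second. For Th2 with Treg in the second gate the 2 values were nearly equal. The other pairs were below the product. None of these differences was tested.

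**Figure D3:**
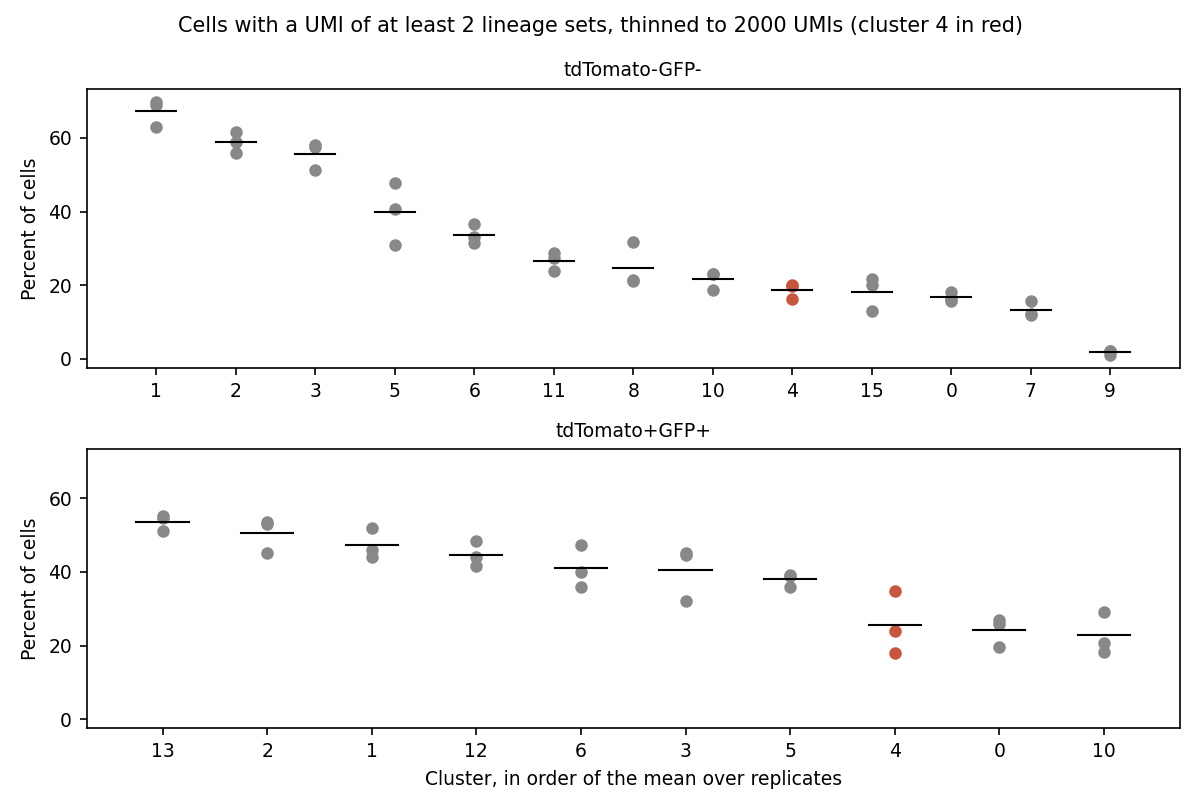
Percent of cells with a UMI of at least 2 of 4 lineage sets after thinning to 2000 UMIs, by cluster and gate, with 1 point for each hashed replicate and a line at their mean. Cluster 4 (red) is ninth of 13 clusters in the tdTomato-GFP- gate and eighth of 10 in the tdTomato+GFP+ gate.

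Cell cycle genes of cluster 4 were second to those of cluster 10 by their mean sum in each gate. They were not apart from all other clusters together, a pool that includes cluster 10. Of the 20 S phase genes 1 was higher than in all other clusters together in all 6 replicates. Of the 23 genes of the G2 and M phases 1 was too, against 4.39% of all genes. The median log2 ratios of the 2 lists were 0.14 and -0.11. The S phase genes, which act in DNA replication, summed to 1008, 1048 and 768 CPM in the tdTomato-GFP- replicates (mean 942, SD 152) and 805, 1145 and 1366 CPM in the tdTomato+GFP+ replicates (mean 1105, SD 282). In all other clusters together they summed to 816 to 1035 CPM and 838 to 969 CPM. Cluster 10 had means of 3692 and 4695 CPM, and the other ranked clusters had means of 405 to 909 CPM and 518 to 721 CPM. The G2 and M phase genes, which act in mitosis, summed to 1058, 1212 and 1230 CPM (mean 1166, SD 94.6) in the tdTomato-GFP- replicates. In the tdTomato+GFP+ replicates they summed to 576, 1242 and 1323 CPM (mean 1047, SD 409). All other clusters together had 922 to 1305 CPM and 742 to 997 CPM. Cluster 10 had means of 6535 and 6510 CPM, and the other ranked clusters had means of 339 to 952 CPM and 256 to 575 CPM. Single replicates departed from the order of the means. In tdTomato-GFP- replicate 1, cluster 1 lay above cluster 4 for both lists, at 1114 and 1693 CPM. Cluster 14 lay above it there for the G2 and M list, at 1203 CPM. In tdTomato-GFP- replicate 3, clusters 1, 2 and 3 had 777, 768.4 and 817 CPM of the S phase list against 768.2 CPM in cluster 4. In tdTomato+GFP+ replicate 1, cluster 1 lay above cluster 4 for the G2 and M list, at 620 CPM.

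A Mki67 UMI, the usual marker of cycling cells, was found in 13.3, 11.9 and 9.47% of tdTomato-GFP- and 11.6, 9.63 and 20.2% of tdTomato+GFP+ cluster 4 cells. After thinning these shares had means of 4.67 and 3.26%, so part of them went with depth. In thinned cells, 5 or more UMIs of the S phase list were found in 7.59% (SD 1.85) and 7.26% (SD 2.31), and of the G2 and M list in 7.59% (SD 1.31) and 6.39% (SD 4.4). The replicates of the gates overlapped in each of these measures. Of 17 S phase and 12 G2 and M phase genes tested between the gates, 0 were called with edgeR's quasi-likelihood test at an adjusted p below 0.05. Of all 7604 genes tested, 1.56% were.

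Cluster 4 made up a larger share of tdTomato-GFP- than of tdTomato+GFP+ cells. It held 15.1, 11.5 and 9.31% of the clustered tdTomato-GFP- cells (mean 12%, SD 2.94) and 4.99, 4.78 and 4.98% of the tdTomato+GFP+ cells (mean 4.91%, SD 0.116). The gates did not overlap, and the exact permutation test gave its smallest possible p for 3 against 3, 0.1 (two-sided). Clusters 1, 2, 3, 12 and 13, those with the most Il17a RNA, took up most tdTomato+GFP+ cells, leaving 449 of 1725, 1575 of 4560 and 987 of 2391 outside them. Of the cells outside these 5 clusters, cluster 4 held 17.2, 12.8 and 10.7% (mean 13.5%, SD 3.32) and 19.2, 13.8 and 12.1% (mean 15.0%, SD 3.69), and the gates overlapped (exact permutation p = 0.6). Each same-numbered pair was nonetheless higher in tdTomato+GFP+ cells, by 2.0, 1.08 and 1.40 points (exact sign-flip p = 0.25, the smallest that 3 pairs allow). The clusters were made from genes that themselves differ between the gates, so these shares describe this clustering. Of the 20 leading genes 1, Gramd3, was called between the gates within cluster 4, while 1.56% of all 7604 genes tested were.

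**Figure D4:**
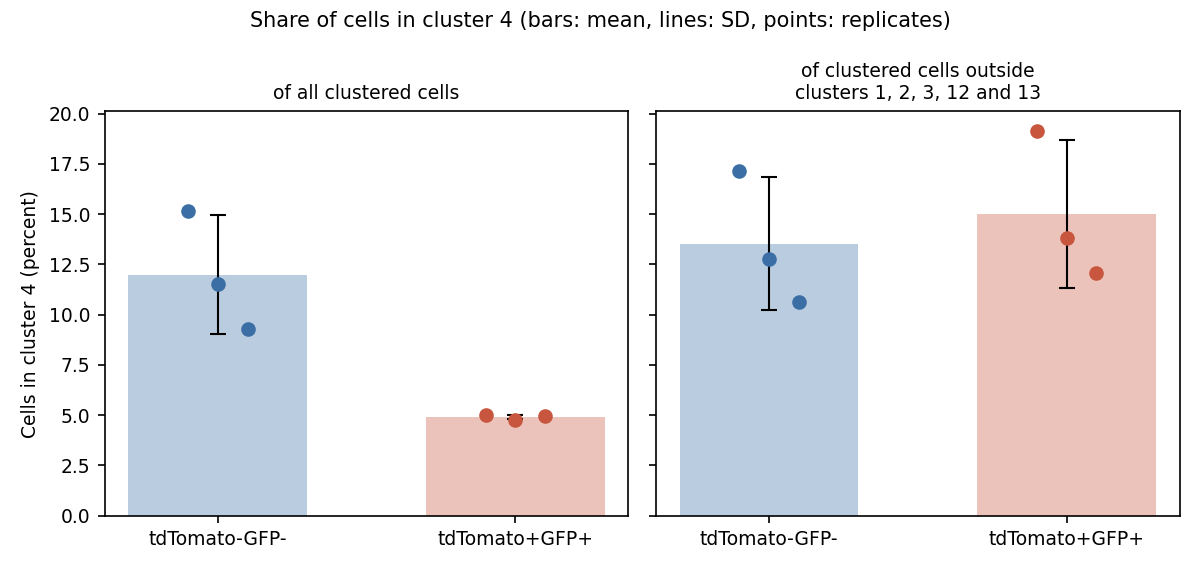
Percent of cells in cluster 4 by gate, of all clustered cells (left) and of those outside clusters 1, 2, 3, 12 and 13 (right). Bars are means of 3 hashed replicates, lines the SD and points the replicates, and the gates do not overlap on the left (15.1 to 9.31% against 4.99 to 4.78%) and overlap on the right.

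Between the gates, cluster 4 cells differed in a small set of genes. The tdTomato+GFP+ cells had more Vdr, Myo6 and Il5 RNA and less Ikzf2, Tnfrsf9, Il12rb2, Tbx21 and Gzmk RNA. The calls of Il5, Il12rb2, Tbx21 and Gzmk were lost in at least 1 alternative run, and that of Il5 was close to the threshold. UMIs were summed over the cluster 4 cells of each replicate and tested with edgeR's quasi-likelihood test, with the gate as the only factor and no pairing. Of 7604 genes tested, 119 (1.56%) had an adjusted p below 0.05, 49 higher (0.644%) and 70 lower (0.921%) in tdTomato+GFP+ cells. Of the 7604 genes, 17.8% had replicates that did not overlap between the gates (7.42% higher and 10.4% lower in tdTomato+GFP+ cells). With the replicate number, which shared receptor clones tie across the gates, as a block, 226 genes were called (108 higher, 118 lower), among them 115 of the 119. The labels do not say what a replicate is beyond its hashtag, so p-values measure the spread between these replicates. Leaving out tdTomato+GFP+ replicate 2, the deepest of that gate, left 39 calls. Leaving out tdTomato-GFP- replicate 1 or 2 left 78 and 68.

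Vdr, the vitamin D receptor (chromosome 15, GRCm38, 97854425 to 97910630), showed the largest rise. It was at 0.748, 2.24 and 1.17 CPM in tdTomato-GFP- cells and 37.3, 24.6 and 18.0 CPM in tdTomato+GFP+ cells. All tdTomato+GFP+ replicates lay above all tdTomato-GFP- ones, with a log2 fold change of 4.28 (SE 0.466, edgeR adjusted p = 2.12e-05). The UMIs came from 7 of the 1295 tdTomato-GFP- cells and 42 of the 423 tdTomato+GFP+ cells.

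Myo6, a myosin motor, was at 10.7, 25.3 and 12.8 CPM and rose to 91.9, 119 and 138 CPM (log2 2.96, SE 0.286, edgeR adjusted p = 0.000843). Plxdc2, a membrane protein, rose from 3.74, 3.93 and 5.83 CPM to 47.2, 17.0 and 22.1 CPM (log2 2.60). Other named rises were Prr5l, a regulator of mTORC2, at log2 2.39, Vax2, a homeobox factor, at 2.01, Plek at 1.86, the metalloprotease Adam12 at 1.65, Sccpdh at 1.53 and Spry1, a brake on receptor signalling, at 1.48. The leukotriene receptor gene Cysltr1 was at 26.9, 28.1 and 11.7 CPM and 79.5, 69.0 and 76.1 CPM (log2 1.59). For each of these genes the gates did not overlap. The calls of Prr5l, Vax2, Plek, Adam12 and Sccpdh were lost without tdTomato+GFP+ replicate 2, those of Prr5l and Adam12 also without tdTomato-GFP- replicate 1, those of Plek and Adam12 without tdTomato-GFP- replicate 2, and that of Adam12 without tdTomato+GFP+ replicate 1.

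Il5, the Th2 cytokine that acts on eosinophils, was at 10.2, 11.2 and 21.0 CPM in tdTomato-GFP- cells and 24.8, 69.0 and 92.7 CPM in tdTomato+GFP+ cells (log2 2.46, SE 0.430, edgeR adjusted p = 0.0499). Its UMIs came from 21 and 24 cells. The call rested on thin ground, since it was lost in 5 of 13 alternatives, without tdTomato-GFP- replicate 1 or 2 and without tdTomato+GFP+ replicate 2 among them. Il13 had the same direction, at 44.6, 66.8 and 76.9 CPM and 84.5, 543 and 551 CPM, but did not pass (log2 2.82, edgeR adjusted p = 0.264). It too was carried by few cells. Without the 37 cells with 10 or more Il13 UMIs it was at 5.55, 10.4 and 15.4 CPM and 0, 31.1 and 47.9 CPM.

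Among genes that were lower in tdTomato+GFP+ cells, Ikzf2, the Treg factor Helios, was at 108, 143 and 153 CPM in tdTomato-GFP- cells and 37.3, 36.9 and 36.0 CPM in tdTomato+GFP+ cells (log2 -1.82, SE 0.177, edgeR adjusted p = 7.19e-06). Tnfrsf9, a costimulatory receptor of activated T and Treg cells, was at 119, 130 and 106 CPM and 32.3, 41.6 and 34.6 CPM (log2 -1.66). Trat1, a T cell receptor adaptor, was at 71.3, 83.6 and 104 CPM and 9.94, 24.6 and 23.5 CPM (log2 -1.93). The gates were apart for all 3 genes.

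Genes of the Th1 programme were lower too. Il12rb2, the inducible chain of the IL-12 receptor (chromosome 6, GRCm38, 67291318 to 67376188), was at 61.1, 53.9 and 53.6 CPM in tdTomato-GFP- cells and 4.97, 17.0 and 13.8 CPM in tdTomato+GFP+ cells (log2 -2.05, SE 0.244, edgeR adjusted p = 5.08e-05). Tbx21, the Th1 factor T-bet, was at 75.5, 66.8 and 83.9 CPM and 22.4, 35.0 and 42.9 CPM (log2 -1.07, SE 0.185, adjusted p = 0.00257). Of the 13 Th1 genes tested 3 were called lower and 0 higher, with a list median of -0.46 against 0.0044 for all genes tested. Of all 7604 genes tested, 0.921% were called lower and 0.644% higher. Tbx21 lost the call without tdTomato+GFP+ replicate 2.

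In the cytotoxic list 2 of 10 tested genes were called, both lower, while 0.921% of all genes tested were called lower. Gzmk, a granzyme of effector memory cells, was at 28.9, 28.6 and 21.0 CPM and 0, 7.56 and 5.53 CPM (log2 -2.29, SE 0.383, edgeR adjusted p = 0.00193). Klrc1, which encodes the receptor NKG2A, had 104 UMIs in the tdTomato-GFP- and 1 UMI in the tdTomato+GFP+ gate. After division by total UMIs the ratio was 0.0293, with an exact 95% interval for counting error of 0.000735 to 0.167.

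Gzma itself did not pass, at log2 -3.91 (edgeR adjusted p = 0.473), although its replicates were apart between the gates. With the replicate block it did (edgeR adjusted p = 1.21e-09), and its 12 high cells were all in 1 gate. The block also added the calls of Il4, Itgae, Pglyrp1, Ccl4, Ctsw, Plac8 and 13 other named genes. Of the 5 marker genes 0 were called without it, while 1.56% of all genes tested were. Ccl5 had a log2 fold change of -0.75 and Csf2 of 1.38, while Lmna and Crip1 were at 0.29 and 0.38.

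**Figure D5:**
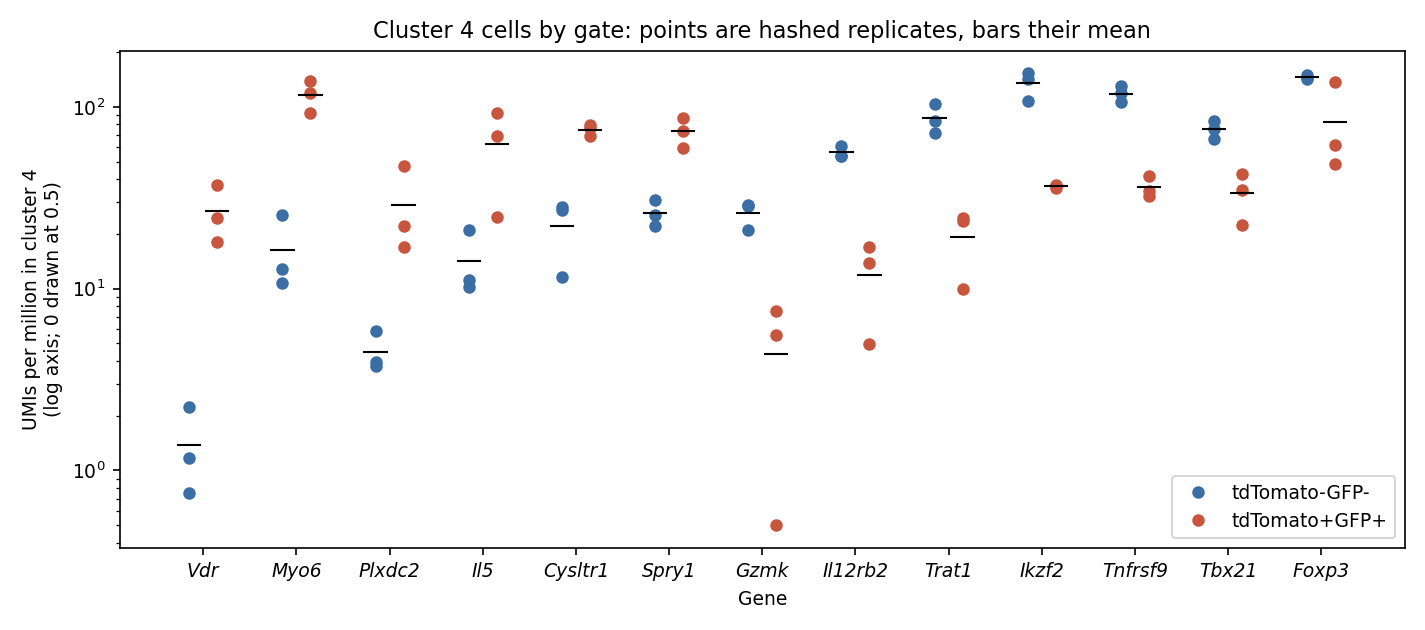
CPM in cluster 4 cells (log axis) of 13 genes, with 1 point for each hashed replicate of the tdTomato-GFP- (blue) and tdTomato+GFP+ (red) gate and a line at the mean. Vdr to Spry1 lie higher and Gzmk to Tbx21 lower in tdTomato+GFP+ cells with no overlap, while Foxp3 spreads from 48.4 to 137 CPM in that gate and did not pass the test.

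Foxp3 was at 145, 149 and 142 CPM in tdTomato-GFP- cells and 137, 61.4 and 48.4 CPM in tdTomato+GFP+ cells of cluster 4. Replicate 1 of the latter was close to the tdTomato-GFP- range and the other two were lower (log2 -0.96, SE 0.327, edgeR adjusted p = 0.334). A Foxp3 UMI was found in 17.7, 16.7 and 14.2% of tdTomato-GFP- and 40.7, 21.1 and 20.2% of tdTomato+GFP+ cells. The share was higher in the second gate (exact permutation p = 0.1, the smallest possible), in the opposite direction to the level. After thinning the shares had means of 13.1 and 15.7% and overlapped (exact permutation p = 0.9). In the tdTomato+GFP+ gate cluster 4 ranked 12th of 13, near the lowest cluster, cluster 7 at 21.5%, with median depths of 4456 and 3707 UMIs. In the tdTomato-GFP- gate cluster 4 had rank 5 of 14, at a mean of 16.2%. The highest there was cluster 5 at 79.3% and the lowest was cluster 1 at 2.62%.

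Of 17 Treg genes tested, Ikzf2, Tnfrsf9 and Izumo1r were called lower and Nt5e, an enzyme that makes adenosine, higher (log2 1.03). For this and the next lists, 0.921% of all 7604 genes tested were called lower and 0.644% higher. Among 19 effector cytokines Il22 and Ltb were called lower and Il5 higher. The call of Il22 was lost with 1 cell per clonotype and with a main hashtag share of at least 0.95. Lef1 and Satb1, factors of naive T cells, were called lower among 10 naive genes. Irf7 and Rtp4 were called lower among 12 interferon response genes. S100a10 and Emp3 were called higher among 21 cytoskeleton, S100 and annexin genes, and Tpi1 and Aldoa, glycolytic enzymes, higher among 16 glycolysis genes. Leaving out tdTomato+GFP+ replicate 2 or tdTomato-GFP- replicate 1 ended the calls of Nt5e, Lef1 and Rtp4, and leaving out tdTomato-GFP- replicate 2 those of Nt5e and Aldoa. Of 8 chemokines, 16 residency and egress genes, 15 AP-1 and stress genes and 9 inhibitory receptors, 0 were called in either direction. Il17a was at log2 1.92 (edgeR adjusted p = 0.248) and Ifng at -1.17 (adjusted p = 0.556), neither past the threshold.

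Fcer1g, a signalling chain of myeloid and NK cells, was called lower as well, at 40.9, 38.7 and 33.8 CPM and 9.94, 14.2 and 20.8 CPM. It was the only called member of the NK and innate lymphoid list, of which 3 genes were tested, and of the 10 tested myeloid genes. Its call was lost with DESeq2, without tdTomato-GFP- replicate 1 and without tdTomato+GFP+ replicate 2. Among receptor segments, which the choice of named genes leaves out, Tcrg-V4 and Trav21-dv12 were called and are named after their values were seen. Tcrg-V4, a gamma chain V gene, had levels of 5.48, 5.05 and 4.66 CPM in the first gate of cluster 4 and of 39.8, 47.2 and 24.9 CPM in the second, with no overlap (log2 2.85, SE 0.304, edgeR adjusted p = 2.12e-05). Its UMIs came from 26 and 52 cells, and in all other clusters its log2 fold change was 3.46. Trav21-dv12, a V gene of alpha and delta chains, was lower (log2 -1.52, adjusted p = 0.0234). The part of other cells, gamma delta T cells among them, in the gate difference was not tested.

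The same contrast over all other clusters gave many more calls, 3289 of 11747 genes (28%, with 44% not overlapping between the gates), on 6811094 to 18920637 UMIs per replicate. Of the 119 genes called in cluster 4, 103 were called there in the same direction. Another 2, AW112010 among them, were called in opposite directions. The other 14 were not called there, 8 that were higher in cluster 4 (Cysltr1, Myo6, Plxdc2, Sh3bp5, Fam162a, Aldh2, Iqce and Il5) and 6 that were lower (Il12rb2, Glrx, Trav21-dv12, Tmem154, Nedd9 and Tff1). Plxdc2 had a log2 fold change of 2.74 there (edgeR adjusted p = 0.0593), close to its 2.60 in cluster 4. Vdr and Ikzf2 had log2 fold changes of 3.62 and -2.24 in the other clusters, and the difference from cluster 4 did not pass (edgeR adjusted p = 0.585 and 0.311).

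The difference of the gate effect was tested directly, with the replicate as a block. Of 11207 genes, 441 (3.94%) were called, 251 in the direction of tdTomato+GFP+ cells (2.24%) and 190 in the other (1.7%). Lmna and Crip1 were among them. Cluster 4 was picked under these marker genes, and the clusters were made from them, so their calls are no test and only levels are given. Within all other clusters the gate log2 fold changes of Lmna and Crip1 were -0.68 and -0.08, and within cluster 4 they were 0.29 and 0.38, and none of the 4 passed. The differences were 0.95 and 0.44. By list, 8 of 13 Th2 genes, Gata3, Il1rl1, Il5 and Il13 among them, and 8 of 13 naive genes were called upward and 0 downward. Of 14 Th1 genes 5 were called downward, Il12rb2 among them, and 1, Cxcr3, upward.

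This comparison rests on what the other clusters hold in each gate. Set against cluster 6, the most similar cluster, in place of all others, 36 genes were called (24 upward and 12 downward), 15 of them shared with the 441. This comparison was chosen after the data were seen. Il5, Il13 and Il12rb2 had differences of 4.18, 1.01 and -0.60 on the log2 scale there and did not pass (edgeR adjusted p = 0.477, 0.572 and 0.786).

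Receptor junctions came from a table of their own. No source used here says whether receptor genes of the count table entered the clustering. A clonotype was defined by the V genes and junctions of the main alpha and beta chains of a cell. In the tdTomato-GFP- replicates 579, 276 and 136 cluster 4 cells had both chains, in 396, 211 and 105 clonotypes, and in the tdTomato+GFP+ replicates 65, 166 and 91 cells had 45, 124 and 67 clonotypes. Cells in clonotypes of 2 or more made up 45.3, 33.0 and 33.1% and 47.7, 38.6 and 40.7%, and in all other clusters 56.3, 52.4 and 45.9% and 92.4, 85.0 and 77.6%. These shares depend on the number of cells, so the chance that 2 cells of a replicate share a clonotype was used.

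That chance was 0.326, 0.727 and 0.763% in tdTomato-GFP- (mean 0.605%, SD 0.243) and 1.73, 0.635 and 1.29% in tdTomato+GFP+ cluster 4 cells (mean 1.22%, SD 0.552). The gates overlapped (exact permutation p = 0.3). Against 7 sets of other cells in the same replicates, 0 differences passed an exact sign-flip permutation test after adjustment. Cluster 4 was above cluster 0 and below clusters 2 and 3 in all 6 replicates, each at the smallest possible p of 0.031 (adjusted 0.0729). Against all other clusters together the means over 6 replicates were 0.913 and 1.02% (p = 0.938, exact sign-flip permutation test). Within the tdTomato-GFP- gate the other clusters had 0.184, 0.253 and 0.243%, below cluster 4 in 3 of 3 replicates. Within the tdTomato+GFP+ gate they had 3.65, 0.956 and 0.854%, above cluster 4 in 2 of 3.

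Many clones of cluster 4 also lay in other clusters of the same replicate. The share of its cells with such a clonotype was 60.8, 51.8 and 48.5% in the tdTomato-GFP- gate (mean 53.7%, SD 6.35) and 80.0, 74.7 and 64.8% in the tdTomato+GFP+ gate (mean 73.2%, SD 7.70). The gates did not overlap (exact permutation p = 0.1, the smallest possible). The share depends on how many other cells were read, 3105, 1920 and 1123 against 1304, 2903 and 1546 with both chains. Over both gates together clusters 0, 6 and 10 held clones of 507, 393 and 290 of the 1313 cells, more than any other clusters. This order was that of the tdTomato-GFP- gate, at 381, 266 and 207 cells. In the tdTomato+GFP+ gate cluster 1 came first with 138 cells, then cluster 6 with 127. Clusters 0 and 3 had 126 each there, cluster 2 had 125 and cluster 10 had 83. An index that corrects for the clone sizes within each cluster was summarised for the 6 clusters with at least 20 cells with both chains in every replicate. It had its highest median over replicates for the cycling cluster 10, at 0.792, then cluster 6 at 0.745 and cluster 0 at 0.622. For clusters 3, 2 and 1 it was 0.560, 0.527 and 0.470. The ranges over replicates overlapped, at 0.560 to 1.25 for cluster 10 and 0.0704 to 0.776 for cluster 1. The other clusters held too few cells for a summary, and clusters 8 and 11 reached 0.986 and 1.14 in tdTomato-GFP- replicate 1.

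Among the 5 clonotypes with most cluster 4 cells in each gate, 4 are printed because their junctions identify a clone across clusters or gates. They were chosen after their values were seen. Of the large clones not printed, clone 2 of the tdTomato-GFP- gate had 14 of its 30 cells in cluster 4, clone 5 had 10 of 13, and clone 3 of the tdTomato+GFP+ gate had 6 of 8. Each junction runs 5′ to 3′ from the conserved cysteine codon to the phenylalanine codon, from the deposited receptor table. Capitals mark bases that match neither the start of the germline V gene's end nor the end of the J gene in GENCODE vM21 transcripts.
tdTomato-GFP- clone 1, alpha: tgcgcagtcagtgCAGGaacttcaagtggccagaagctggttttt
tdTomato-GFP- clone 1, beta: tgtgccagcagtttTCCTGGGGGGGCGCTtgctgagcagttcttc
tdTomato-GFP- clone 3, alpha: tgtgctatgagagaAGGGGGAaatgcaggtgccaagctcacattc
tdTomato-GFP- clone 3, beta: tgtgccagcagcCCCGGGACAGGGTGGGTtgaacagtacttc
tdTomato+GFP+ clone 1, alpha: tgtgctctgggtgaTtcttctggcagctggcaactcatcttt
tdTomato+GFP+ clone 1, beta: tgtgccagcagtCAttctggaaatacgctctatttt
tdTomato+GFP+ clone 2, alpha: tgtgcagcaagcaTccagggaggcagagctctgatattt
tdTomato+GFP+ clone 2, beta: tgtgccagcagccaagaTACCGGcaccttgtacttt

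Clone 1 of the tdTomato-GFP- gate (TRAV3D-3 with TRAJ16, TRBV15 with TRBJ2-1) had 19 cluster 4 cells in replicate 2, 6.88% of those with both chains there, and 68 cells in all. Cluster 6 held 17 of them and cluster 3 held 11. Its beta junction has 15 bases outside the germline ends, and the same beta chain was read with another main alpha chain in 39 further cells. Of its 19 cluster 4 cells 8 had a second alpha chain. Whether the 39 cells belong to the same clone was not tested. Clone 3 (TRAV16 with TRAJ39, TRBV3 with TRBJ2-7) had 13 cluster 4 cells of 81, in 11 other clusters, and 17 beta bases outside the germline ends.

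Clone 1 of the tdTomato+GFP+ gate (TRAV6N-7 with TRAJ22, TRBV19 with TRBJ1-3) had 8 cluster 4 cells of 196, and clusters 1, 2 and 3 held 60, 37 and 36. Its junctions are close to germline, with 1 alpha and 2 beta bases outside the germline ends, and 5 tdTomato-GFP- cells of the same replicate number carried it. Clone 2 (TRAV7D-2 with TRAJ15, TRBV5 with TRBJ2-4) had 8 cluster 4 cells of 15, in replicate 3, with 3 each in clusters 10 and 15.

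Clones also crossed the gates. Of the tdTomato-GFP- cluster 4 clonotypes, 15 (32 cells) were found among tdTomato+GFP+ cells of the same replicate number and 0 under another number. Of the tdTomato+GFP+ cluster 4 clonotypes, 18 (31 cells) were found among tdTomato-GFP- cells of the same number and 2 under another. The 40 tdTomato+GFP+ partner cells of the first set were most frequent in clusters 0 (10), 5 (7) and 6 (6), with 3 in cluster 4. The 53 tdTomato-GFP- partner cells of the second set were spread over 13 clusters, with 12 in cluster 2, 8 in cluster 0 and 3 in cluster 4.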

How the data were processed

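Single-cell RNA and receptor libraries of sorted colonic CD4 T cells were used as deposited. The deposited count table held whole UMI counts per cell and gene, and the deposited cell table gave gate, hashed replicate, cluster, hashtag counts and the main hashtag's fraction. The submitters' processing notes name Cell Ranger and Scanpy 1.7.2 with mm10 and GRCm38. How cells were filtered, clustered and assigned to hashtags is not given in the sources used here. The lowest main hashtag share of an assigned cell was 0.8. The 3 hashtag features (43.8% of UMIs) were left out, as were cells without a replicate or cluster. No doublet caller was run. Cells were grouped by gate name, per the labels.

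For each hashed replicate the UMIs of cluster 4 cells, and of all other cells, were added up. These sums entered a robust, two-sided quasi-likelihood fit of edgeR 4.0.16 (R 4.3.3) with TMM scaling and filterByExpr at a count of 10 or more. Benjamini-Hochberg adjustment ran over every tested gene, with 0.05 as the threshold. DESeq2 1.42.0 was an alternative. The scripts were tested on simulated data. CPM are UMIs per 1000000 without hashtags, and log2 fold changes are edgeR's, tdTomato+GFP+ over tdTomato-GFP-. Ratios between clusters have 20 CPM added. Shares of cells were thinned to 2000 UMIs where stated. The Th17 set of the mixed lineage measure holds 1 gene fewer than planned, and some genes are not reported here. Single values were compared with exact permutation tests, and an exact sign flip over same-numbered pairs was added after the data were seen. Python 3.11.15 was used for the rest.

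The members and gene lists were chosen with earlier results of these data known. Named are the marker genes and fixed single genes, the up to 10 largest rises and falls among called genes with separate replicates and at least 20 CPM, the up to 5 largest differences of the gate effect each way, the 20 leading and 10 lowest genes of the cluster, and up to 4 members of each list. Receptor V, J and C segments, immunoglobulin genes and hashtags are left out of the largest rises, falls and differences. Called members of lists, the 14 genes not called elsewhere and the cells with 10 or more UMIs were singled out after their values were seen. Same-numbered samples of the 2 gates shared 18, 23 and 32 clonotypes and differently numbered ones 0 to 3. Deviations of same-numbered samples correlated at 0.128, 0.0722 and 0.135 in cluster 4, and at 0.333, 0.0671 and 0.342 in all other clusters. There, differently numbered samples reached 0.156, above the pair of replicates 2. The numbers were taken to pair the samples. The main gate test and the 3 against 3 permutation tests did not use the pairs. The replicate block and the sign flips over pairs did.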

Additional observations from a re-analysis of the deposited data

Results flagged for a closer look

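The gate effect differed between cluster 4 and all other clusters by the interaction test of edgeR (adjusted p below 0.05) for the 9 genes given here. The log2 difference was 2.51 for Il13 and 2.51 for Il5, both Th2 cytokines, 2.31 for Pglyrp1, 2.30 for 1700061F12Rik and 2.16 for Cd160. It was -2.14 for Havcr2, -2.05 for Il12rb2, -2.0 for Neb and -1.79 for Gngt2. The call was kept in 8 of 13 alternatives for Il13 and 8 of 12 for Cd160, and in 11 or more of 13 for the others. In cluster 4, the 37 cells with 10 or more Il13 UMIs held 91.8% of its Il13 UMIs.

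For Havcr2, Neb and Gngt2 the other clusters rose in tdTomato+GFP+ cells, by 1.59, 1.67 and 1.20 on the log2 scale, while cluster 4 had -0.65, -0.40 and -0.59. Pglyrp1 and Cd160 were at -3.87 and -3.52 in the other clusters and at -1.50 and -1.17 in cluster 4, where neither passed. With cluster 6 as the comparison, chosen after the data were seen, 1700061F12Rik (1.97, edgeR adjusted p = 0.0185) and Gngt2 (-1.0, adjusted p = 0.0185) passed. The other 7 did not: Il5 was at 4.18 (adjusted p = 0.477), Il13 at 1.01 (0.572), Pglyrp1 at 0.49 (0.924), Cd160 at 0.68 (0.956), Havcr2 at -1.35 (0.0645), Il12rb2 at -0.60 (0.786) and Neb at -1.07 (0.147). The other clusters differ in make-up between the gates, and the part of that in these differences was not tested.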

How the results depend on the processing

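The 119 calls of the gate difference in cluster 4 became 322 with no filter on low counts, 226 with the replicate block and 32 among cells with a main hashtag share of at least 0.95, which leaves 0 cluster 4 cells in tdTomato+GFP+ replicate 1. Leaving out 1 replicate gave 39 to 168 calls. In all other clusters the 3289 calls became 1596 with the stricter hashtag share and 2150 to 3172 without 1 replicate. The 441 differences of the gate effect became 250 with DESeq2, 176 with 1 cell per clonotype and cluster, 71 with the stricter hashtag share, 36 against cluster 6, and 289 to 475 without 1 replicate. Of 118 named genes tested, 34 were called and 9 of these in every alternative run (Vdr, Myo6, Plxdc2, Spry1, Ikzf2, Trat1, Tnfrsf9, Klrc1 and Izumo1r). The replicate block ended 0 calls of named genes, added 20 and turned no called direction.

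The excess of tdTomato+GFP+ cells outside the Il17a-rich clusters, 1.49 points, turned to -0.577 without tdTomato+GFP+ replicate 1 and to -6.86 with the stricter hashtag share, and ranged from -0.577 to 3.31 without 1 replicate. Mixed detection was 37.7 and 50.5% with all UMIs and 4.24 and 7.50% with at least 2 UMIs per lineage set. The difference in clone sharing from all other clusters, -0.111 points, turned to 0.251 without tdTomato+GFP+ replicate 1 and ranged from -0.237 to 0.251 without 1 replicate. The causes were not tested. The 86 to 218 cells of the tdTomato+GFP+ replicates limit genes of low level.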
